A study of Mus musculus with 11 samples.

Results

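Genes whose expression moved the same way with 2 different siRNAs against CMTR1 were described in mouse embryonic stem cells (ESCs), by setting all 8 CMTR1 siRNA libraries against the 3 control siRNA libraries. A gene was taken if it had more than 1 CPM (counts scaled to the library total, the unit of all levels below) in at least 4 of the 11 libraries and if its 8 siRNA libraries all lay above, or all below, its 3 controls. Such a gene is called separated here. Of 54838 genes listed in the count files, 16073 passed the expression filter and 1002 were separated, 639 with the siRNA libraries above control and 363 with them below.

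The E14 line of ESCs had been grown on gelatin in Glasgow's Minimum Essential Medium with Knockout Serum Replacement and recombinant LIF. The cells were transfected with a scrambled control siRNA, with CMTR1 siRNA 1 or with CMTR1 siRNA 2, and total RNA was taken with TRIzol after 36 h, depleted of rRNA and made into directional libraries. The comparison asks what loss of CMTR1 does to transcript levels in these cells, with a pair of siRNAs so that an effect of 1 sequence alone can be told from one shared by both. There were 3 control libraries and 4 of each CMTR1 siRNA, with 6738478 to 8382318 counted reads each. Only 1 control siRNA and no untransfected sample were analysed here, so a gene higher with both CMTR1 siRNAs cannot be told apart from a gene lowered by the control siRNA, and the same holds in the other direction. The study's methods speak of 3 biological replicates, while each CMTR1 siRNA has 4 libraries and no sample label says which libraries came from separate cultures. The p-values measure the spread between these libraries, part of which may be technical.

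CMTR1 methylates the ribose of the first transcribed nucleotide next to the 7-methylguanosine cap, a mark that has been linked to the recognition of foreign RNA and whose part in cap binding and translation is less clear. Mouse ESCs are held in the naive pluripotent state by LIF, which acts through JAK kinases and STAT3, and by a network of transcription factors that includes Nanog, Klf4, Klf2 and Esrrb. Signalling by FGF4 through ERK pushes the cells out of that state. Because the libraries are of bulk RNA, fewer cells of a type and less RNA per cell cannot be told apart.

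Both CMTR1 siRNAs were directed at coding exons of Cmtr1 (ENSMUSG00000024019; GRCm38 chromosome 17, 29660595 to 29705979, plus strand). The targets are shown because they hold the seed matches counted further on. In each, capitals mark the 7 bases that pair with positions 2 to 8 of the siRNA guide strand. The siRNA 1 target is in exon 13 of 24 of the transcript Cmtr1-201, at 29691377 to 29691395, and the siRNA 2 target is in exon 6, at 29680594 to 29680612, both on the plus strand. The first is also in the overlapping gene Gm28043, and the second in Gm28043 and Gm28052.
CMTR1 siRNA 1 target: caaaggagaccATGAATTt
CMTR1 siRNA 2 target: gatggttattgAAGATGAa

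Cmtr1 itself was not a separated gene. It was at 21.3, 21.7 and 17.9 CPM in controls. Cmtr1 levels with siRNA 1 were 21.1, 21.3, 16.2 and 18.04 CPM, and those with siRNA 2 were 15.6, 16.8, 16.4 and 19.5 CPM, from 110 to 176 reads per library. The third control library lay below 4 of the 8 siRNA libraries, so the groups overlapped. The mean over both siRNAs gave a log2 fold change −0.17, SE 0.0937, edgeR adjusted p = 0.324, with a 95% interval of −0.35 to 0.016. A two-sided exact permutation test of the 8 against the 3 libraries gave p = 0.182, where the smallest p that the 165 arrangements allow is 0.00606. The counts of the targeted gene therefore do not set the CMTR1 siRNA libraries apart from control, and the groups below rest on the sample labels. Both target sites also lie in Gm28043, and reads that fit more than 1 gene may not have been counted for Cmtr1. These counts may thus cover only part of its mRNA, and whether that bears on the comparison of the groups was not tested. In the reads that were counted, no fall of Cmtr1 was called, and CMTR1 protein is not measured by them.

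All libraries carried the markers of ESCs. The summed level of 10 ESC marker genes was 2087 to 2203 CPM in control, 1763 to 1951 CPM with siRNA 1 and 1859 to 1943 CPM with siRNA 2, so that every siRNA library lay below every control. Markers of fibroblasts or feeder cells, endoderm, mesoderm and trophoblast summed to at most 83.9 CPM per list in any library, and for each list the libraries of at least 1 siRNA overlapped with control. Markers of 2-cell-like cells were at 19.7 to 22.7 CPM in control, 18.3 to 23.8 CPM with siRNA 1 and 32.6 to 39.2 CPM with siRNA 2. Summed neural progenitor markers were at 163.5 to 164.7 CPM in control, 177.5 to 196.6 CPM with siRNA 1 and 175.7 to 208.2 CPM with siRNA 2. The separated gene in that list was Nes, an intermediate filament protein of progenitor cells, at 57.1 to 64.5 CPM in control and 69.2 to 92.3 CPM with the CMTR1 siRNAs. None of the markers was at 0 in all libraries. Their part in the differences below was not tested.

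Differences were small for most separated genes. The median log2 fold change was 0.31 (1.24-fold) among the 639 higher genes and −0.25 (1.19-fold) among the 363 lower ones, and 105 and 44 genes respectively reached 1.5-fold. At least 2-fold differences were seen at 21 higher and 5 lower genes, and all 26 had a mean of 0.897 to 2.29 CPM, where few reads were counted. Separation held for 3.98% of all genes tested in the higher direction and 2.26% in the lower one, 6.23% in all. Counts of separated genes in the function lists below are to be read against these shares. Protein-coding genes made up 92.0% of the higher and 91.2% of the lower genes.

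The balance between directions depended on how libraries were scaled. Total counts gave 639 higher and 363 lower genes, TMM factors 480 and 498, and DESeq2 size factors 465 and 520. The same direction under all 3 scalings was found for 465 higher and 363 lower genes (2.89% and 2.26% of genes tested, 5.15% together). The higher ones thus lost 174 and the lower ones none. Every siRNA library had a larger TMM factor (0.994 to 1.012) than every control (0.986 to 0.991). A gene separated below control with total counts therefore could not lose its place with TMM factors, and that scaling was a check of the higher genes only. The median over all genes tested was 0.025 on the log2 scale with total counts, 0.0025 with TMM factors and −0.0015 with DESeq2 size factors. Of the genes named below, Tsc2, Dnmt3l, Nodal, Zmat3, Morc2a, Foxh1, Tuba1a, Csrp1, Cbx2, Mbd2, H1f0 and Lif were separated with total counts and not with either other scaling, and Idi1 not with DESeq2 size factors.

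With edgeR's quasi-likelihood test on the 3 groups, the mean of both siRNAs differed from control at an adjusted p of at most 0.05 for 1110 genes (6.91% of those tested), 673 higher (4.19%) and 437 lower (2.72%). Separation and this test read the same libraries, so neither supports the other. The calls rest in part on single controls, with 499 left without control library 2 and 502 without control library 3. DESeq2 called 660 genes (262 higher and 398 lower), and edgeR with TMM factors 1082 (509 and 573). Both separation and the edgeR test held for 381 of the higher separated genes (59.6%) and 234 of the lower ones (64.5%). Of the genes named below, Col3a1, Dnmt3l, Zmat3, Morc2a, Tuba1a, Etv1, Eif1ax, Cbx2, Idi1, Mbd2, H1f0, Zyx, Jak2 and Mxd4 were called by edgeR and not by DESeq2. Genes past edgeR's test are said below to have risen or fallen, while for other separated genes the values are given.

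**Figure D1:**
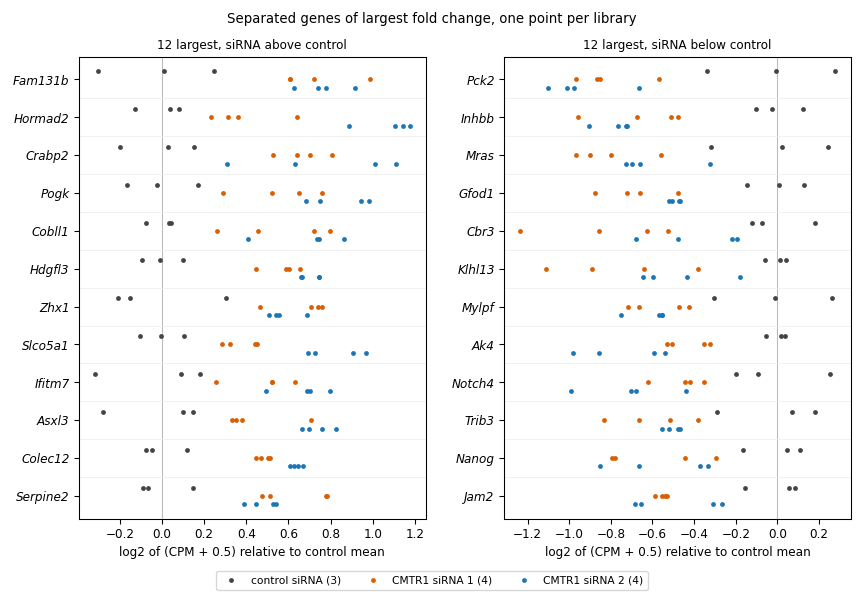
The 12 higher and 12 lower separated genes with the largest fold changes among those with a mean of at least 10 CPM. Each point is 1 library, plotted as log2 of CPM plus 0.5 relative to the mean of the control libraries (control in dark grey, n = 3; siRNA 1 in orange, n = 4; siRNA 2 in blue, n = 4); Hormad2 and Slco5a1 lie further from control with siRNA 2 than with siRNA 1, and for Cbr3 the siRNA 1 libraries lie further.

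An siRNA can lower mRNAs other than its target through its seed, positions 2 to 8 of the guide, as a microRNA does. Matches to the seed of each siRNA were therefore counted in the longest 3′ untranslated region (UTR) of each protein-coding gene. TTGCTCA, the match to the control siRNA, was in 132 of 586 higher genes (22.5%, 95% Wilson interval 19.3 to 26.1), in 33 of 331 lower genes (9.97%, 7.19 to 13.7) and in 1622 of 13101 genes tested (12.4%). The match to siRNA 1, ATGAATT, was in 14.5%, 15.4% and 13.8% of these genes, and that to siRNA 2, AAGATGA, in 16.6%, 19.3% and 15.4%. Intervals cover counting error only, and these shares are descriptions with no test. The median 3′ UTR was 1616.5 bases for higher, 1045 for lower and 1197 for all genes, and within each of 5 classes of 3′ UTR length the control match was more frequent among higher genes than among all genes. It was in 4.11% against 1.56% at 20 to 414 bases, 11.3% against 5.30% at 415 to 894 bases and 19.13% against 9.25% at 895 to 1564 bases. In longer 3′ UTRs it was in 28 of 140 higher genes against 14.4% of all at 1565 to 2677 bases, and in 42.2% against 31.5% above that. The matches to the CMTR1 siRNAs were in turn more frequent among lower genes than among all genes in each class. For siRNA 2 the shares were 5.26% against 2.36%, 6.85% against 6.26%, 12 of 60 genes against 12.2%, 27.8% against 19.95% and 41.2% against 36.1%, from the shortest to the longest class. For siRNA 1 they were 6.58% against 1.79%, 5.48% against 4.96%, 11.7% against 10.5%, 20.4% against 17.3% and 35.3% against 34.6%. Among all genes that fell by edgeR's test, separated or not, the siRNA 2 match was in 23.6% (95% Wilson interval 19.7 to 28.0) and the siRNA 1 match in 17.8% (14.4 to 21.9).

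Seen from the match, 8.14% of the 1622 genes with TTGCTCA were separated above control and 3.96% of the genes without it. With 1 match the share was 7.56% and with more it was 12.1% (25 of 207 genes), and among 310 genes where an A follows the match it was 14.8%. These shares were not matched for 3′ UTR length. From the shortest to the longest class of length, 7.32%, 7.91%, 9.09%, 7.45% and 8.25% of genes with a match were separated above control. Without a match these shares were 2.71%, 3.465%, 3.92%, 4.99% and 5.18%. The median log2 fold change was 0.052 with and 0.022 without a match. Of the separated genes above control by at least 1.5-fold, 16.0% (12 of 75) had it, which is closer to the share of all genes. It was in 24.2% of the genes above control under all 3 scalings (101 of 418). The part of the control siRNA in the higher genes, and of the CMTR1 siRNA seeds in the lower ones, was not tested.

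**Figure D2:**
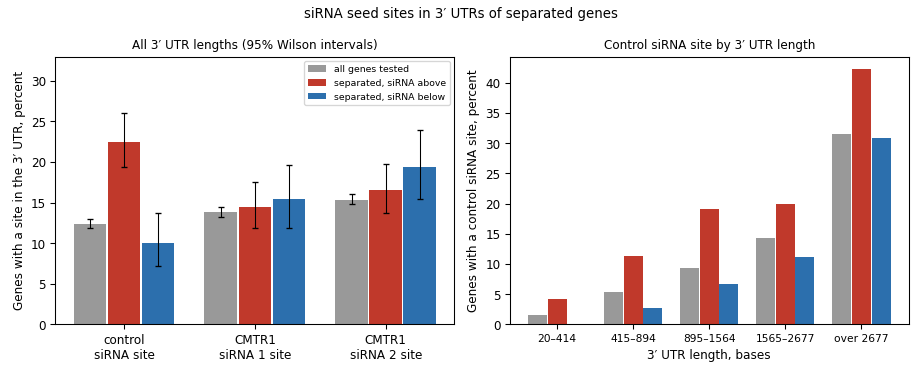
Left, percent of protein-coding genes with a seed match of each siRNA in the 3′ UTR, for all genes tested (grey, 13101), genes above control (red, 586) and genes below control (blue, 331), with 95% Wilson intervals as bars. Right, the share with the control siRNA match in 5 classes of 3′ UTR length; the red bars stand above the grey ones in each class.

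The 6 genes named by rule that lay above control and carry TTGCTCA followed by A are shown with 9 bases before the match and 6 after it, since they link a named gene to this count. Capitals mark the match, and sequences are of GRCm38, 5′ to 3′ on the strand of the mRNA.
Rbbp7, chrX:162778702-162778708, plus: ttaaagtgcTTGCTCAagttcc
Psmb7, chr2:38588070-38588076, minus: ctttggcaaTTGCTCAattaaa
Mrps17, chr5:129718198-129718204, plus: ctgtgtgttTTGCTCAatggtt
Mapk3, chr7:126765288-126765294, plus: aagtgaactTTGCTCAacccag
Scd2, chr19:44306002-44306008, plus: ggggctgttTTGCTCAagtgcc
Eif1ax, chrX:159387539-159387545, plus: aaaccatttTTGCTCAatttgc

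Other named genes above control with a match were Fam131b, Pogk, Colec12, Jak2, Cdkn1a, Crim1, Lef1, Lif, Tns3, Gsk3b, Slc38a4, Zmat3 and Tsc2. Of the 17 genes named above control for their size or gap, 4 had it (Fam131b, Pogk, Colec12 and Crim1), and of the 16 named below control none did.

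Many genes of the naive pluripotency network lay below control. Of 20 genes of this network tested, 8 were separated, all of them below control, and 12 fell by edgeR's test. Over all genes tested 2.26% were separated below control and 2.72% fell. The 8 were separated under each of the 3 scalings, which TMM factors could not have changed for genes below control. The median log2 fold change of the 20 was −0.25, against 0.025 over all genes tested, and 16 of them were below 0. Nanog, a homeobox factor at the centre of the network (chromosome 6, 122707489 to 122714633, plus strand), was at 76.3, 92.3 and 88.4 CPM in controls. Nanog levels with siRNA 1 were 49.7, 49.1, 69.7 and 62.8 CPM, and those with siRNA 2 were 47.3, 53.8, 67.9 and 66.1 CPM. Its 8 siRNA values, 47.3 to 69.7 CPM, all lay under the lowest control, and the first and second libraries of each siRNA were the lowest (log2 fold change −0.55, SE 0.0788, edgeR adjusted p = 5.28e-06).

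The Krüppel-like factors Klf4 and Klf2, which keep naive genes active downstream of LIF and of MEK inhibition, followed the same course. Klf4 was at 56.2, 62.8 and 58.7 CPM in controls. Klf4 levels with siRNA 1 were 42.7, 39.4, 52.6 and 44.6 CPM, and those with siRNA 2 were 35.8, 39.0, 40.2 and 40.0 CPM, and 1 siRNA 1 library came within 4 CPM of the lowest control (log2 fold change −0.51, SE 0.0649, edgeR adjusted p = 7.31e-07). Klf2 was at 49.1, 55.3 and 53.03 CPM in controls. Klf2 levels with siRNA 1 were 33.8, 31.8, 37.8 and 37.4 CPM, and those with siRNA 2 were 37.4, 41.9, 42.5 and 39.4 CPM, with every siRNA library at least 6 CPM under the controls (log2 fold change −0.48, SE 0.0633, edgeR adjusted p = 1.21e-06). The mean of Klf4 was 59.2 ± 3.30 CPM (SD, n = 3) in control and 41.8 ± 5.08 CPM (SD, n = 8) with the CMTR1 siRNAs.

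Nr0b1, an orphan nuclear receptor that binds Oct4, was at 42.5 to 49.0 CPM in control and 29.1 to 42.0 CPM with the CMTR1 siRNAs (−0.42, edgeR adjusted p = 0.000165). Pecam1, an adhesion molecule of naive ESCs, was at 44.6 to 47.9 CPM in control and 31.3 to 42.2 CPM with the CMTR1 siRNAs (−0.33, edgeR adjusted p = 0.00173). Zfp42, also known as Rex1, Nr5a2 and Fbxo15 completed the 8. Esrrb, an orphan nuclear receptor of the same network, missed separation because siRNA 1 library 3 lay just above its lowest control, at 130.0, 164 and 160.4 CPM in controls, against 112, 117, 130.1 and 118 for siRNA 1 and 96.9, 95.9, 116 and 105 for siRNA 2. It fell by edgeR's test (log2 fold change −0.45, SE 0.0568, edgeR adjusted p = 6.37e-07) and was separated with TMM factors and with DESeq2 size factors. Among 19 general pluripotency genes only Trim28, a corepressor that silences retroelements in ESCs, was separated below control, at 1657 to 1696 CPM in control and 1456 to 1592 CPM with the CMTR1 siRNAs (−0.13, edgeR adjusted p = 0.0129), and only Dnmt3l above it.

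**Figure D3:**
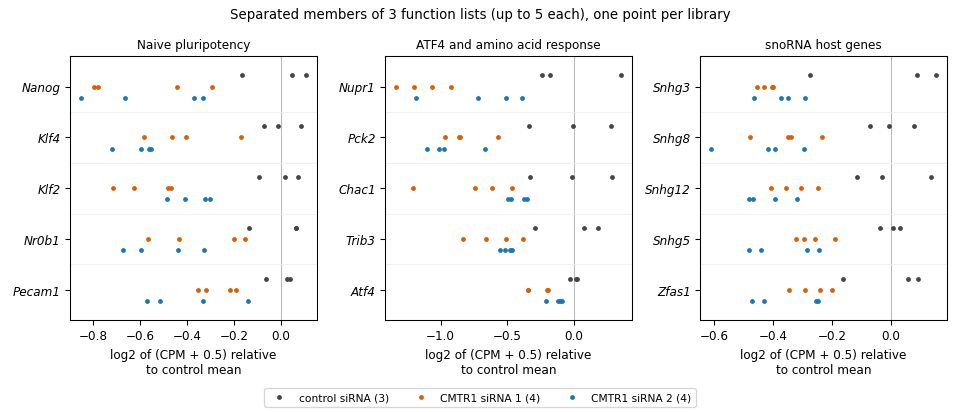
Up to 5 separated genes from each of 3 lists, with 1 point per library as log2 of CPM plus 0.5 relative to the control mean (control in dark grey, siRNA 1 in orange, siRNA 2 in blue). In each row the 8 siRNA points lie left of the 3 control points; on average Nupr1, Chac1 and Atf4 sit further left with siRNA 1, and Pecam1 and Klf4 with siRNA 2.

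Separated genes for secreted signals lay on both sides of control, with Fgf4, Bmp4, Inhbb, Fgf15 and Vegfa below and Lif and Nodal above, a grouping made after the values were seen. Fgf4, the autocrine ligand that drives ERK signalling in these cells (chromosome 7, 144847367 to 144865243, plus strand), was at 114, 121 and 119 CPM in controls. Fgf4 levels with siRNA 1 were 75.98, 77.3, 88.6 and 87.4 CPM, and those with siRNA 2 were 79.0, 88.5, 88.4 and 94.8 CPM. The highest siRNA library lay under the lowest control by 0.26 on the log2 scale (log2 fold change −0.47, SE 0.0525, edgeR adjusted p = 1.05e-07). Bmp4, a ligand that acts through SMAD1/5 and Id genes and was the 1 separated gene of 13 in that pathway, was at 12.2, 12.2 and 13.9 CPM in controls. Bmp4 levels with siRNA 1 were 8.01, 7.73, 8.85 and 7.08 CPM, and those with siRNA 2 were 6.39, 7.04, 10.2 and 6.67 CPM, with the third siRNA 2 library above the other 3 of its group (log2 fold change −0.72, SE 0.123, edgeR adjusted p = 0.000102). Inhbb, the beta B subunit of activin B, was at 20.4, 21.6 and 24.0 CPM in controls. Inhbb levels with siRNA 1 were 15.3, 11.1, 13.6 and 15.6 CPM, and those with siRNA 2 were 11.5, 13.1, 13.1 and 12.7 CPM (log2 fold change −0.73, SE 0.095, edgeR adjusted p = 8.90e-07).

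Lower too were Fgf15, at 12.2 to 16.3 CPM in control and 9.09 to 12.1 CPM with the CMTR1 siRNAs (−0.47, edgeR adjusted p = 0.00514), and Notum, an extracellular enzyme that removes the lipid from Wnt ligands, at 24.9 to 29.9 CPM in control and 17.2 to 23.7 CPM with the CMTR1 siRNAs (−0.48, edgeR adjusted p = 0.000207). The receptor gene Notch4 was at 23.5 to 32.3 CPM in control and 13.4 to 21.1 CPM with the CMTR1 siRNAs (−0.58, edgeR adjusted p = 4.55e-05), and Vegfa, the endothelial growth factor, at 21.7 to 25.4 CPM in control and 14.6 to 20.8 CPM with the CMTR1 siRNAs (−0.43, edgeR adjusted p = 0.00234). Socs2, a feedback inhibitor of JAK and STAT signalling, was at 68.6 to 75.2 CPM in control and 55.7 to 67.9 CPM with the CMTR1 siRNAs (−0.19, edgeR adjusted p = 0.0197).

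Of 19 genes of FGF and ERK feedback tested, 3 were separated above control (Fgfr2, Mapk3 and Etv1) and 1 below (Fgf4). Together these were 21.1%, against 6.23% over all genes tested, and the list median was −0.0058. Fgfr2, which encodes an FGF receptor, was at 39.2, 40.0 and 41.2 CPM in controls. Fgfr2 levels with siRNA 1 were 55.8, 54.6, 49.4 and 51.1 CPM, and those with siRNA 2 were 55.1, 50.6, 47.9 and 47.3 CPM. The lowest siRNA library lay above the highest control by 0.20 on the log2 scale (log2 fold change 0.36, SE 0.0631, edgeR adjusted p = 0.000143). Mapk3, which encodes ERK1 and carries the control siRNA seed match shown above, was at 64.2, 56.5 and 59.0 CPM in controls. Mapk3 levels with siRNA 1 were 76.6, 77.9, 78.6 and 78.7 CPM, and those with siRNA 2 were 72.9, 82.7, 74.1 and 66.6 CPM (log2 fold change 0.34, SE 0.0585, edgeR adjusted p = 8.95e-05). Etv1, an ETS factor induced by ERK, was at 60.7 to 61.3 CPM in control and 63.8 to 74.6 CPM with the CMTR1 siRNAs (0.18, edgeR adjusted p = 0.0448). Outside that list, Spred3, of a family of Ras and ERK inhibitors, was at 30.1, 30.2 and 27.9 CPM in controls, against 38.7, 43.9, 39.2 and 44.8 for siRNA 1 and 43.3, 47.8, 42.7 and 42.7 for siRNA 2 (log2 fold change 0.55, SE 0.0694, edgeR adjusted p = 6.37e-07). Mras, a Ras-family GTPase, lay below control, at 11.8, 15.05 and 17.6 CPM in controls, against 7.72, 7.35, 8.32 and 9.89 for siRNA 1 and 8.95, 9.19, 8.76 and 11.7 for siRNA 2 (log2 fold change −0.72, SE 0.12, edgeR adjusted p = 6.53e-05).

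The Wnt effector Lef1, a transcription factor partner of beta-catenin that marks the exit from naive pluripotency, was at 120.2, 99.2 and 103 CPM in controls. Lef1 levels with siRNA 1 were 146, 160.0, 132 and 145 CPM, and those with siRNA 2 were 137, 147, 138 and 133 CPM (log2 fold change 0.41, SE 0.0546, edgeR adjusted p = 1.62e-06). Gsk3b, the kinase that marks beta-catenin for destruction, was at 103, 97.9 and 93.1 CPM in controls. Gsk3b levels with siRNA 1 were 126, 125, 133 and 124 CPM, and those with siRNA 2 were 118, 112, 106 and 118 CPM, higher with siRNA 1 than with siRNA 2 (log2 fold change 0.29, SE 0.0491, edgeR adjusted p = 7.94e-05). Cdh2, N-cadherin, a gene of the formative and primed states, was at 34.3 to 38.5 CPM in control and 42.6 to 50.2 CPM with the CMTR1 siRNAs (0.35, edgeR adjusted p = 0.00036). These lists as a whole did not move one way. Of formative and primed genes, 2 of 18 were separated above control and 1 below (16.7% together), with a median of 0.054. Of Wnt genes, 2 of 21 were above and 1 below (14.3% together), with a median of 0.073. Over all genes tested 6.23% were separated. In the LIF pathway Jak2, the kinase bound to LIF receptor subunits, was at 8.08 to 9.14 CPM in control and 10.5 to 13.9 CPM with the CMTR1 siRNAs (0.47, edgeR adjusted p = 0.00962), and Lif itself at 6.73 to 7.89 CPM in control and 8.03 to 10.97 CPM with the CMTR1 siRNAs (0.37, edgeR adjusted p = 0.0688). The list of 12 LIF and STAT3 genes held these 2 above control and Socs2 below. Of 18 genes of Nodal signalling, Nodal and its partner factor Foxh1 were separated, both above control, and neither passed edgeR's test. Nodal was at 45.9 to 51.7 CPM in control and 51.7 to 56.8 CPM with the CMTR1 siRNAs (0.12, edgeR adjusted p = 0.223). Foxh1 was at 56.0 to 60.3 CPM in control and 60.7 to 70.9 CPM with the CMTR1 siRNAs (0.14, edgeR adjusted p = 0.122).

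The transcription factor ATF4 is made when amino acids run short or when the initiation factor eIF2 is phosphorylated. Of 26 genes of this response tested, 6 were separated, all below, and 9 fell by edgeR's test. The list median was −0.15, and 25 of the 26 were below 0. Over all genes tested 2.26% were separated below control, 2.72% fell, and 6901 of 16073 were below 0. The SD of the list's level between the 3 control libraries was 0.11 on the log2 scale. Pck2, the mitochondrial phosphoenolpyruvate carboxykinase and the lower gene of largest fold change with a mean of at least 10 CPM (chromosome 14, 55540266 to 55551242, plus strand), was at 16.3, 20.6 and 25.2 CPM in controls. Pck2 levels with siRNA 1 were 11.1, 10.3, 11.2 and 13.8 CPM, and those with siRNA 2 were 9.38, 10.0, 10.2 and 12.8 CPM. The controls themselves spread from 16.3 to 25.2 CPM, and no siRNA library passed 13.8 CPM (log2 fold change −0.89, SE 0.111, edgeR adjusted p = 4.25e-07). Trib3, a pseudokinase that restrains AKT and ATF4, was at 18.03, 25.2 and 23.3 CPM in controls, against 13.8, 12.2, 16.9 and 15.4 for siRNA 1 and 14.9, 15.9, 15.8 and 15.3 for siRNA 2 (log2 fold change −0.56, SE 0.0969, edgeR adjusted p = 0.000109).

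Chac1, an enzyme that breaks down glutathione, was at 9.14, 11.5 and 14.3 CPM in controls, against 4.75, 6.73, 7.40 and 8.29 for siRNA 1 and 8.10, 8.83, 8.22 and 9.01 for siRNA 2 (log2 fold change −0.60, SE 0.132, edgeR adjusted p = 0.00266). Nupr1, a small stress-induced chromatin protein, was at 4.82, 5.06 and 7.54 CPM in controls, against 2.82, 2.24, 2.51 and 2.00 for siRNA 1 and 2.27, 3.94, 4.31 and 3.33 for siRNA 2, on few reads (log2 fold change −0.998, SE 0.185, edgeR adjusted p = 0.000287). For both, the third control library was the highest and the siRNA 1 libraries were lower on average than those of siRNA 2. Atf4 mRNA was at 172 to 178 CPM in control and 138 to 165 CPM with the CMTR1 siRNAs (−0.20, edgeR adjusted p = 0.00254), and the sixth was Asns, asparagine synthetase.

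Parts of the machinery of protein synthesis lay below control by small amounts. The list of symbols beginning in Rpl or Rps had 95 genes tested, of which 10 encode S6 kinases and 85 ribosomal proteins. Of these, 22 were separated, all below control and all ribosomal proteins, 11 fell by edgeR's test, and 87 of the 95 had log2 fold changes below 0. Over all genes tested 2.26% were separated below control, 2.72% fell, and 6901 of 16073 were below 0. The median was −0.077, and the SD of the list's level between the 3 control libraries was 0.021 on the log2 scale. The separated member furthest from control was Rpl13a, at 84.8, 81.2 and 76.4 CPM in controls, against 67.7, 73.5, 67.2 and 69.0 for siRNA 1 and 70.3, 70.7, 65.2 and 66.2 for siRNA 2 (log2 fold change −0.23, SE 0.0522, edgeR adjusted p = 0.00302). Rplp0, a stalk protein of the large subunit, was at 708, 731 and 741 CPM in controls, against 618, 641, 656 and 642 for siRNA 1 and 628, 652, 602 and 610.2 for siRNA 2 (log2 fold change −0.20, SE 0.0364, edgeR adjusted p = 0.000171). Rpl3 was at 681 to 694 CPM in control and 595 to 651 CPM with the CMTR1 siRNAs and Rps27 at 234 to 241 CPM in control and 204 to 229.7 CPM with the CMTR1 siRNAs. Rpl and Rps genes have many processed pseudogenes, so their counts depend on how reads that fit several places were treated.

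Host genes of small nucleolar RNAs, whose introns give the guide RNAs for rRNA modification and many of whose spliced transcripts carry the same 5′ terminal oligopyrimidine start as ribosomal protein mRNAs, held 7 separated genes among 21 listed noncoding genes tested, all below control. Over all genes tested 2.26% were separated below control. Snhg12 was at 80.4, 71.7 and 67.6 CPM in controls. Snhg12 levels with siRNA 1 were 61.6, 59.2, 55.1 and 57.1 CPM, and those with siRNA 2 were 55.7, 58.6, 52.3 and 52.8 CPM (log2 fold change −0.37, SE 0.0569, edgeR adjusted p = 1.58e-05). Snhg5 was at 117, 119 and 113 CPM in controls, against 94.8, 93.0, 102 and 97.3 for siRNA 1 and 85.7, 83.3, 95.6 and 98.3 for siRNA 2 (log2 fold change −0.31, SE 0.0502, edgeR adjusted p = 3.76e-05). Snhg3 was at 42.5 to 57.3 CPM in control and 37.2 to 42.0 CPM with the CMTR1 siRNAs, Snhg8 at 21 to 23.3 CPM in control and 14.3 to 18.7 CPM with the CMTR1 siRNAs and Zfas1 at 75.2 to 89.6 CPM in control and 60.6 to 73.2 CPM with the CMTR1 siRNAs. For Snhg3 and Zfas1 the third control library was much nearer to the siRNA libraries than the other 2 controls.

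Separated translation factors lay on both sides of control. Eif4a2, a helicase of the cap-binding complex eIF4F, was at 459, 450.3 and 403 CPM in controls. Eif4a2 levels with siRNA 1 were 342, 332, 364 and 353 CPM, and those with siRNA 2 were 334, 305, 358 and 381 CPM (log2 fold change −0.34, SE 0.0466, edgeR adjusted p = 2.65e-06). Eef1b2, an exchange factor for the elongation factor eEF1A, was at 475 to 501 CPM in control and 394 to 425 CPM with the CMTR1 siRNAs (−0.24, edgeR adjusted p = 1.58e-05), and Eif4b, which stimulates eIF4A, at 682 to 715 CPM in control and 578 to 625 CPM with the CMTR1 siRNAs (−0.21, edgeR adjusted p = 0.000153). Above control were Eif1ax, part of the scanning initiation complex, at 110.1 to 112 CPM in control and 117 to 136 CPM with the CMTR1 siRNAs (0.19, edgeR adjusted p = 0.014), and Eef1e1, at 56.4 to 61.3 CPM in control and 62.3 to 69.6 CPM with the CMTR1 siRNAs (0.15, edgeR adjusted p = 0.0866). In all, 4 of 66 translation factors were separated below and 2 above control, 9.09% together. In ribosome biogenesis, 3 of 36 genes were separated (8.33%), all below. Over all genes tested 6.23% were separated, 3.98% above and 2.26% below control. The list medians were −0.0117 and −0.0235, against 0.025 over all genes tested. Ubtf, the upstream factor of RNA polymerase I, was at 302 to 319 CPM in control and 259.5 to 292 CPM with the CMTR1 siRNAs (−0.19, edgeR adjusted p = 0.0012). Utp14a was at 165 to 172 CPM in control and 141 to 163 CPM with the CMTR1 siRNAs (−0.17, edgeR adjusted p = 0.0129), and Nop56, of box C/D snoRNPs, at 387 to 407 CPM in control and 348 to 383 CPM with the CMTR1 siRNAs (−0.09, edgeR adjusted p = 0.146).

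Chromatin regulators were separated in both directions. Of 31 Polycomb genes, 3 were separated above and 3 below control (19.4% together, against 6.23% over all genes tested). Under all 3 scalings 2 stayed above and 3 below. Rbbp7, a histone-binding WD40 protein of PRC2 and of histone deacetylase complexes with the control seed match (GRCm38 chromosome X, 162760402 to 162779092, plus strand), was at 204, 189 and 186 CPM in controls. Rbbp7 levels with siRNA 1 were 239, 250.4, 271 and 269.6 CPM, and those with siRNA 2 were 282, 277, 250.2 and 273 CPM. Its lowest siRNA library passed the highest control by 0.23 on the log2 scale (log2 fold change 0.45, SE 0.0459, edgeR adjusted p = 2.35e-08). Other Polycomb genes above control were Phc2, of PRC1, at 49.8 to 51.9 CPM in control and 54.4 to 70.6 CPM with the CMTR1 siRNAs (0.26, edgeR adjusted p = 0.00858), and Cbx2, at 40.6 to 42.7 CPM in control and 43.2 to 53.6 CPM with the CMTR1 siRNAs (0.22, edgeR adjusted p = 0.0209). Below control was Epop, an ESC-enriched partner of PRC2, at 143, 162 and 161 CPM in controls, against 112, 105, 116 and 118 for siRNA 1 and 131, 140.4, 125 and 133 for siRNA 2 (log2 fold change −0.35, SE 0.0476, edgeR adjusted p = 2.74e-06). Another was Cbx6, at 128 to 133 CPM in control and 90.1 to 115 CPM with the CMTR1 siRNAs (−0.31, edgeR adjusted p = 4.75e-05). The PRC2 scaffold gene Suz12 was the other one below.

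Of 13 genes of DNA methylation and its removal, 3 were separated above and 2 below control (38.5% together, against 6.23% over all genes tested). Under all 3 scalings 1 stayed above (Tet3) and 2 below. The enzymes that oxidise 5-methylcytosine parted. Tet2 was at 246, 252 and 259.9 CPM in controls, against 207, 208, 227 and 221 for siRNA 1 and 196, 199.8, 224 and 213 for siRNA 2 (log2 fold change −0.26, SE 0.0429, edgeR adjusted p = 7.56e-05). Tet1 was at 1519.8, 1506 and 1571 CPM in controls, against 1414, 1418, 1429 and 1425 for siRNA 1 and 1344, 1327, 1461 and 1410.1 for siRNA 2 (log2 fold change −0.13, SE 0.0355, edgeR adjusted p = 0.0207). Tet3 lay the other way, at 81.8, 76.2 and 77.0 CPM in controls, against 100.0, 96.8, 94.0 and 87.0 for siRNA 1 and 94.5, 93.9, 93.2 and 83.6 for siRNA 2 (log2 fold change 0.24, SE 0.0533, edgeR adjusted p = 0.00232). The methyl-CpG binding protein Mbd2 was at 20.5 to 24.1 CPM in control and 24.2 to 32.5 CPM with the CMTR1 siRNAs (0.27, edgeR adjusted p = 0.0374), and Dnmt3l, a cofactor of de novo DNA methylation, at 313 to 323 CPM in control and 324 to 373 CPM with the CMTR1 siRNAs (0.12, edgeR adjusted p = 0.0451). Asxl3, of the ASXL family that binds the BAP1 deubiquitinase, was among the 12 higher genes of largest fold change, at 13.5, 13.9 and 10.2 CPM in controls, against 20.8, 16.5, 16.1 and 15.9 for siRNA 1 and 20.2, 20.6, 21.6 and 22.6 for siRNA 2 (log2 fold change 0.60, SE 0.104, edgeR adjusted p = 0.000102). The histone variant gene H2afy2, a macroH2A, was at 24.8, 22.9 and 23.4 CPM in controls, against 29.2, 31.4, 32.4 and 30.5 for siRNA 1 and 32.8, 36.3, 30.5 and 32.7 for siRNA 2 (log2 fold change 0.43, SE 0.0747, edgeR adjusted p = 0.000109).

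Higher genes included targets of p53. Of 24 tested, 4 were separated above control and 1 below, 9 rose and 1 fell by edgeR's test, and the median log2 fold change was 0.10. Over all genes tested 3.98% were separated above control and 4.19% rose. Cdkn1a, the cyclin-dependent kinase inhibitor p21 (chromosome 17, 29090976 to 29100727, plus strand), was at 42.5, 40.6 and 38.9 CPM in controls. Cdkn1a levels with siRNA 1 were 59.1, 61.4, 52.7 and 56.7 CPM, and those with siRNA 2 were 55.0, 60.6, 51.9 and 48.3 CPM. The nearest libraries of the 2 groups were 0.18 on the log2 scale apart (log2 fold change 0.45, SE 0.0663, edgeR adjusted p = 8.08e-06). Plk2, a polo-like kinase, was at 55.9 to 69.3 CPM in control and 71.1 to 88.4 CPM with the CMTR1 siRNAs (0.29, edgeR adjusted p = 0.0012), and Tnfrsf10b, a death receptor for TRAIL, at 55.0 to 58.3 CPM in control and 59.3 to 76.1 CPM with the CMTR1 siRNAs (0.24, edgeR adjusted p = 0.00577). Zmat3, an RNA-binding protein, was at 201 to 219 CPM in control and 219.6 to 248 CPM with the CMTR1 siRNAs (0.14, edgeR adjusted p = 0.0332). The lower one was Ei24, at 95.3 to 102 CPM in control and 82.9 to 94.6 CPM with the CMTR1 siRNAs (−0.16, edgeR adjusted p = 0.0359).

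Of 47 actin cytoskeleton and adhesion genes tested, 5 were separated above control and 1 below, and 8 rose and 2 fell by edgeR's test. Over all genes tested 3.98% were separated above and 2.26% below control, and 4.19% rose and 2.72% fell. The list median was 0.073, against 0.025 over all genes tested. The SD of the list's level between the 3 control libraries was 0.042 on the log2 scale. Tns3, a tensin that links integrins to actin, was at 309, 269.6 and 293 CPM in controls. Tns3 levels with siRNA 1 were 363, 361, 361 and 362 CPM, and those with siRNA 2 were 382, 384, 396 and 384 CPM. Every siRNA library lay above the highest control, the nearest by 0.22 on the log2 scale (log2 fold change 0.36, SE 0.0404, edgeR adjusted p = 1.05e-07). Zyx, zyxin of focal adhesions, was at 85.3, 68.6 and 82.4 CPM in controls, against 102, 111, 86.9 and 92.8 for siRNA 1 and 105, 119.7, 91.0 and 89.9 for siRNA 2 (log2 fold change 0.34, SE 0.071, edgeR adjusted p = 0.00125). The first and second libraries of each siRNA were the highest. Tln1, talin, was at 402 to 435 CPM in control and 449 to 502 CPM with the CMTR1 siRNAs (0.16, edgeR adjusted p = 0.00768). Csrp1 was at 30.8 to 32.2 CPM in control and 32.4 to 40.9 CPM with the CMTR1 siRNAs (0.20, edgeR adjusted p = 0.0571), and Lima1, which bundles actin, lay below control at 70.7 to 83.6 CPM in control and 60.2 to 69.3 CPM with the CMTR1 siRNAs (−0.21, edgeR adjusted p = 0.0125).

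The beta-tubulin gene Tubb6 rose, at 86.2, 85.5 and 82.0 CPM in controls. Tubb6 levels with siRNA 1 were 126, 124, 111 and 113 CPM, and those with siRNA 2 were 100.2, 112, 106 and 100.1 CPM (log2 fold change 0.40, SE 0.0522, edgeR adjusted p = 1.16e-06). The siRNA 1 libraries were higher on average (log2 difference −0.18, SE 0.0523, edgeR adjusted p = 0.0288, siRNA 2 less siRNA 1). The other separated gene of 19 in the tubulin list, 5 of which encode gamma-tubulin complex proteins, was Tuba1a, at 120.2 to 131 CPM in control and 133 to 153 CPM with the CMTR1 siRNAs (0.17, edgeR adjusted p = 0.012). In the matrix, Mmp2, a gelatinase, was at 15.5, 14.8 and 15.5 CPM in controls, against 24.2, 22.4, 19.5 and 19.6 for siRNA 1 and 23.6, 21.95, 21.6 and 21.4 for siRNA 2 (log2 fold change 0.51, SE 0.0904, edgeR adjusted p = 0.000146). Serpine2, an inhibitor of extracellular serine proteases, was at 32.5, 28.0 and 27.5 CPM in controls, against 50.8, 50.6, 42.0 and 40.9 for siRNA 1 and 42.5, 40.1, 38.6 and 42.8 for siRNA 2 (log2 fold change 0.57, SE 0.0753, edgeR adjusted p = 1.35e-06). Col3a1, a fibrillar collagen, was at 1.21 to 2.16 CPM in control and 0.247 to 1.19 CPM with the CMTR1 siRNAs, on few reads (−1.13, edgeR adjusted p = 0.0294). For Col3a1 the call was lost with DESeq2 (adjusted p = 0.128), with edgeR on 2 groups (0.0741), with edgeR's exact test (0.0514), and without control library 1, where the log2 fold change was −0.84 (edgeR adjusted p = 0.252).

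Among the genes of largest fold change above control with a mean of at least 10 CPM, several have no shared role. Fam131b was at 8.51, 7.15 and 5.65 CPM in controls. Fam131b levels with siRNA 1 were 12.02, 14.6, 11.1 and 11.1 CPM, and those with siRNA 2 were 12.2, 13.8, 12.5 and 11.2 CPM (log2 fold change 0.79, SE 0.13, edgeR adjusted p = 5.71e-05). Crabp2, which carries retinoic acid to its nuclear receptors, was at 7.62, 9.87 and 9.02 CPM in controls, against 14.7, 15.8, 12.9 and 14.0 for siRNA 1 and 18.3, 19.7, 11.1 and 14.0 for siRNA 2 (log2 fold change 0.77, SE 0.134, edgeR adjusted p = 0.000128). Hdgfl3, of the HDGF family of PWWP proteins, was at 21.5, 20.2 and 23.1 CPM in controls, against 34.3, 33.03, 29.6 and 32.7 for siRNA 1 and 36.5, 36.5, 34.5 and 34.5 for siRNA 2 (log2 fold change 0.65, SE 0.0753, edgeR adjusted p = 1.49e-07). The lowest siRNA library lay above the highest control by 0.36 on the log2 scale for Fam131b and by 0.35 on the log2 scale for Hdgfl3.

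Colec12, a scavenger receptor with a collagen-like stem, was at 17.3, 15.05 and 15.3 CPM in controls, against 21.8, 22.7, 22.8 and 22.2 for siRNA 1 and 25.1, 25.5, 24.8 and 24.4 for siRNA 2 (log2 fold change 0.57, SE 0.0842, edgeR adjusted p = 8.13e-06). Pogk, a KRAB protein derived from a transposase, was at 5.92 to 7.62 CPM in control and 8.32 to 13.8 CPM with the CMTR1 siRNAs (0.74, edgeR adjusted p = 0.000159), and Cobll1 at 6.78 to 7.40 CPM in control and 8.72 to 13.5 CPM with the CMTR1 siRNAs (0.67, edgeR adjusted p = 0.000762). Zhx1, a zinc finger and homeobox repressor, was at 8.75 to 12.7 CPM in control and 14.3 to 17.6 CPM with the CMTR1 siRNAs (0.64, edgeR adjusted p = 0.000132), and Ifitm7 at 6.04 to 8.76 CPM in control and 9.24 to 13.7 CPM with the CMTR1 siRNAs (0.61, edgeR adjusted p = 0.00139). Samd4, an RNA-binding protein of the Smaug family, was at 22.1, 23.2 and 21.4 CPM in controls, against 28.3, 31.5, 28.4 and 28.1 for siRNA 1 and 31.3, 29.9, 31.0 and 32.7 for siRNA 2 (log2 fold change 0.44, SE 0.0751, edgeR adjusted p = 9.92e-05). Zfp618, a zinc finger protein, was at 14.1 to 15.05 CPM in control and 18.8 to 20.8 CPM with the CMTR1 siRNAs (0.45, edgeR adjusted p = 0.000702), and Crim1, a membrane protein that binds BMPs, at 11.5 to 12.3 CPM in control and 15.1 to 17.2 CPM with the CMTR1 siRNAs (0.43, edgeR adjusted p = 0.00361).

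Below control, genes of large fold change with a mean of at least 10 CPM outside the groups above were Gfod1, at 13.6 to 16.5 CPM in control and 8.01 to 10.8 CPM with the CMTR1 siRNAs (−0.61, edgeR adjusted p = 0.000113), and Cbr3, a carbonyl reductase, at 20.8 to 25.8 CPM in control and 9.35 to 19.8 CPM with the CMTR1 siRNAs (−0.60, edgeR adjusted p = 0.000159). Klhl13, a substrate adaptor of a cullin 3 ubiquitin ligase, was at 73.5, 77.2 and 78.9 CPM in controls, against 35.2, 41, 58.6 and 48.9 for siRNA 1 and 48.7, 50.3, 56.5 and 67.4 for siRNA 2 (log2 fold change −0.59, SE 0.0805, edgeR adjusted p = 2.03e-06). Mylpf, a myosin light chain, was at 30.3 to 45.2 CPM in control and 22.2 to 27.9 CPM with the CMTR1 siRNAs (−0.59, edgeR adjusted p = 5.28e-06). Ak4, a mitochondrial adenylate kinase, was at 47.4, 49.8 and 50.6 CPM in controls, against 34.0, 34.5, 38.4 and 39.3 for siRNA 1 and 27.0, 24.7, 32.5 and 33.7 for siRNA 2 (log2 fold change −0.59, SE 0.0708, edgeR adjusted p = 2.88e-07). Jam2, a junctional adhesion molecule, was at 63.6 to 75.2 CPM in control and 43.9 to 58.8 CPM with the CMTR1 siRNAs (−0.51, edgeR adjusted p = 9.56e-07). Hmces, which binds abasic sites in single-stranded DNA, was at 51.4, 51.7 and 53.4 CPM in controls, against 31.0, 34.5, 40.9 and 41.03 for siRNA 1 and 33.2, 33.2, 42.1 and 37.4 for siRNA 2 (log2 fold change −0.51, SE 0.071, edgeR adjusted p = 3.91e-06). Uhmk1, a kinase with a U2AF homology motif, was at 95.4, 91.3 and 91.9 CPM in controls, against 68.9, 62.3, 75.9 and 74.4 for siRNA 1 and 63.2, 69.3, 63.6 and 66.8 for siRNA 2 (log2 fold change −0.45, SE 0.0538, edgeR adjusted p = 2.85e-07). Ankrd33b was at 20.2 to 22.2 CPM in control and 13.2 to 17.0 CPM with the CMTR1 siRNAs (−0.49, edgeR adjusted p = 0.00019). For Hmces, Uhmk1 and Ankrd33b the 3 control values lay within 5 CPM of each other.

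In metabolism, 3 of 31 glycolysis and hypoxia genes were separated (9.68%), all below control, and 1 of them was Vegfa. Over all genes tested 2.26% were separated below and 3.98% above control. Pfkp, the platelet isoform of phosphofructokinase, was at 105, 108 and 105 CPM in controls, against 74.3, 84.4, 86.9 and 89.4 for siRNA 1 and 74.3, 79.2, 98.5 and 89.8 for siRNA 2 (log2 fold change −0.33, SE 0.0587, edgeR adjusted p = 0.000193), and Gapdh at 1133 to 1162 CPM in control and 1049.8 to 1131 CPM with the CMTR1 siRNAs (−0.07, edgeR adjusted p = 0.27). In cholesterol and lipid synthesis 3 of 30 were separated (10.0%), all above, and of these only Scd2 was separated under all 3 scalings. Scd2, a stearoyl-CoA desaturase, was at 359.8, 301 and 295 CPM in controls, against 402, 411, 389 and 368 for siRNA 1 and 442, 440.0, 374 and 369.7 for siRNA 2 (log2 fold change 0.33, SE 0.0525, edgeR adjusted p = 4.44e-05). Idi1, an isomerase of the mevalonate pathway, was at 25.4 to 28.7 CPM in control and 29.3 to 36.2 CPM with the CMTR1 siRNAs (0.23, edgeR adjusted p = 0.0487). Proteasome genes held 2 of 48 (4.17%), which is near the share above control over all genes tested. These were Psmb7 and Psmb2, which encode catalytic and structural beta subunits of the core particle. Psmb7 was at 137, 131 and 129 CPM in controls. Psmb7 levels with siRNA 1 were 161, 175, 190.2 and 173 CPM, and those with siRNA 2 were 174, 166, 168 and 173 CPM (log2 fold change 0.38, SE 0.0468, edgeR adjusted p = 3.04e-07). Psmb2 was at 73.0 to 81.8 CPM in control and 89.9 to 105 CPM with the CMTR1 siRNAs (0.27, edgeR adjusted p = 0.000655). Mrps17 of the mitochondrial ribosome was at 34.6 to 39.5 CPM in control and 40.96 to 52.7 CPM with the CMTR1 siRNAs (0.37, edgeR adjusted p = 0.000319). It was 1 of 77 in its list (1.30%), under the share over all genes tested.

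**Figure D4:**
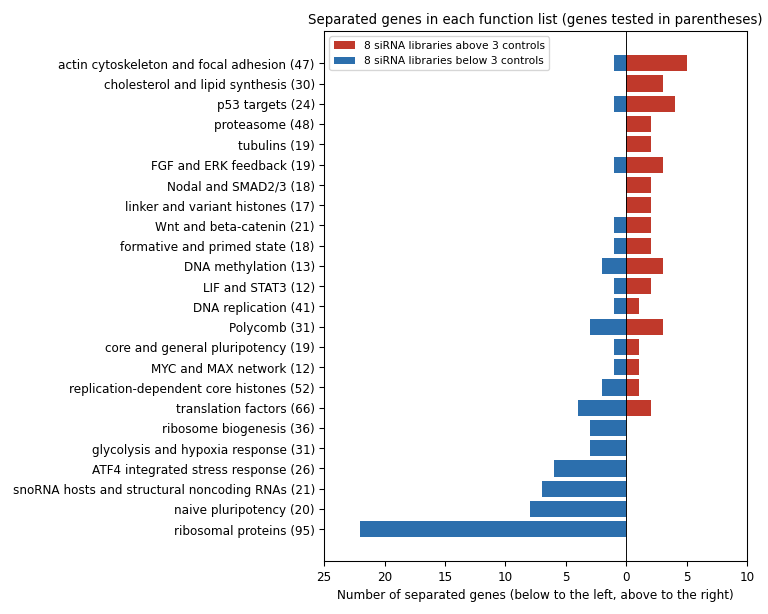
Number of separated genes in each function list with more than 1 of them, with siRNA libraries below control to the left (blue) and above control to the right (red), and the number of genes tested in parentheses. Ribosomal protein symbols (22 of 95, 10 of the 95 being S6 kinase genes) and naive pluripotency (8 of 20) lie to the left alone. So do the list of snoRNA hosts and structural noncoding RNAs (7 of 21) and ATF4 targets (6 of 26). Over all genes tested 6.23% were separated.

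Most core histone genes lay below control for the mean of both siRNAs, by small amounts. Of 52 replication-dependent core histone genes, which lack poly(A) tails and are kept by rRNA depletion, 43 had log2 fold changes below 0 for that mean. Separated were 3 of them (5.77%). Over all genes tested 6901 of 16073 were below 0 and 6.23% were separated. The list median was −0.037 for both siRNAs, 0.024 with siRNA 1 and −0.11 with siRNA 2. The SD of the list's level between the 3 control libraries was 0.035 on the log2 scale. Hist1h2ba, a testis-type H2B gene, lay above control at 9.50 to 10.0 CPM in control and 10.2 to 17.9 CPM with the CMTR1 siRNAs (0.51, edgeR adjusted p = 0.00269). Hist2h4 and Hist1h2bc lay below, the first at 119.6 to 127 CPM in control and 95 to 115 CPM with the CMTR1 siRNAs (−0.19, edgeR adjusted p = 0.0106). Of 17 linker and variant histone genes, H2afy2 and H1f0 were separated, both above control, and H1f0, which accumulates in cells that stop dividing, was at 15.5 to 18.6 CPM in control and 18.9 to 26.4 CPM with the CMTR1 siRNAs (0.34, edgeR adjusted p = 0.0215).

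Other lists held 1 or 2 separated genes, to be read against the 6.23% separated over all genes tested. In the MYC and MAX network of 12 genes, Mycn lay below control at 198 to 207 CPM in control and 174 to 197 CPM with the CMTR1 siRNAs (−0.12, edgeR adjusted p = 0.0932), and Mxd4, a MAX partner that opposes MYC, above it at 6.54 to 7.87 CPM in control and 8.15 to 12.3 CPM with the CMTR1 siRNAs (0.49, edgeR adjusted p = 0.0199). Of 41 DNA replication genes, Rfc1 of the clamp loader lay above control and Gmnn, geminin, below it. Single genes lay below control among 34 of replication stress and repair (Bard1), 20 heat shock proteins (Hsp90ab1), 24 of collagens, laminins and integrins (Col3a1), 25 imprinted (Impact) and 2 induced by cold (Rbm3). Single genes lay above it among 91 of the respiratory chain (Cox6b2, at 14.1 to 15.5 CPM in control and 16.0 to 24.8 CPM with the CMTR1 siRNAs) and 18 of the germline (Piwil2).

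Some lists held no separated gene. These were the RNA cap formation and cap binding list (12 genes tested), decapping and RNA decay (26), small RNA silencing (13), interferon and RNA sensing (20), snRNP proteins of the spliceosome (21), SR splicing factors (11), RNA polymerase II and Mediator (43), the TRiC chaperonin (8), immediate early genes (15), cyclins and mitosis (36) and genes of the mitochondrial genome (9). In the cap list, Cmtr2, which methylates the second transcribed nucleotide, was at 12.2, 10.1 and 10.9 CPM in controls, against 10.7, 11.2, 9.51 and 9.36 for siRNA 1 and 11.5, 10.9, 10.5 and 11.2 for siRNA 2 (log2 fold change −0.06, SE 0.111, edgeR adjusted p = 0.818). Dhx15, a helicase that binds CMTR1, was at 354 to 384 CPM in control and 345 to 385 CPM with the CMTR1 siRNAs (−0.01, edgeR adjusted p = 0.946). Cmtr2, Dhx15 and, above, Nes were named after their values had been seen. In all, 118 of the 1266 genes tested that are in any of the 45 function lists were separated, and the other 884 separated genes are in none of them.

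The siRNAs were also compared with each other. Over all genes tested, siRNA 2 and siRNA 1 differed at 1196 genes by edgeR's test (7.44%), 721 higher with siRNA 2 (4.49%) and 475 lower (2.96%). Among the separated genes they differed at 37 of the 639 higher ones (5.79%), of which 25 lay further from control with siRNA 2, and at 15 of the 363 lower ones (4.13%), of which 9 lay further with siRNA 2. The rule had taken these genes because all 8 siRNA libraries lie on the same side of control, which bears on the same siRNA values, so these shares and the medians that follow are descriptions and do not show that both siRNAs act alike. Median log2 fold changes were 0.30 with siRNA 1 and 0.32 with siRNA 2 for the higher genes, and −0.23 and −0.26 for the lower ones.

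Of the higher genes that differed between siRNAs, Piwil2, which binds piRNAs in germ cells, was at 35.7, 37.4 and 36.5 CPM in controls. Piwil2 levels with siRNA 1 were 40.4, 41.8, 42.8 and 41.4 CPM, and those with siRNA 2 were 65.3, 65.0, 52.3 and 57.4 CPM (log2 difference 0.53, SE 0.0664, edgeR adjusted p = 3.33e-07, siRNA 2 less siRNA 1). Its siRNA 1 libraries lay just above the controls, and its siRNA 2 libraries well above both. Hormad2, a protein of meiotic chromosome axes, was at 7.36, 6.29 and 7.13 CPM in controls. Hormad2 levels with siRNA 1 were 9.05, 8.23, 8.72 and 11.1 CPM, and those with siRNA 2 were 15.9, 13.2, 15.5 and 16.3 CPM (log2 difference 0.71, SE 0.118, edgeR adjusted p = 5.38e-05). Slc38a4, an amino acid transporter, was at 198, 192 and 191 CPM in controls, against 217, 204, 207 and 221 for siRNA 1 and 250.3, 259.9, 251 and 255 for siRNA 2 (log2 difference 0.26, SE 0.0421, edgeR adjusted p = 4.26e-05). Slco5a1, of a family of organic anion transporters, was at 14.6, 13.6 and 15.7 CPM in controls, against 20.2, 18.4, 20.1 and 17.9 for siRNA 1 and 27.8, 24.6, 29.1 and 24.0 for siRNA 2 (log2 difference 0.46, SE 0.0881, edgeR adjusted p = 0.000458).

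Of the lower genes, Rbm3, an RNA-binding protein induced by mild cold, was at 247, 237 and 229 CPM in controls. Rbm3 levels with siRNA 1 were 201, 201, 195 and 215 CPM, and those with siRNA 2 were 163, 166, 165 and 179 CPM (log2 difference −0.27, SE 0.0454, edgeR adjusted p = 8.01e-05). Anp32b, a histone chaperone, was at 290.1, 297 and 293 CPM in controls, against 238, 269, 275 and 262 for siRNA 1 and 202, 225, 204 and 232 for siRNA 2 (log2 difference −0.27, SE 0.0472, edgeR adjusted p = 0.00012). Wsb2, a SOCS box protein, was at 105, 97.3 and 101 CPM in controls, against 84.4, 89.6, 82.9 and 86.5 for siRNA 1 and 67.0, 74.0, 69.2 and 71.6 for siRNA 2 (log2 difference −0.28, SE 0.0538, edgeR adjusted p = 0.000388). All 3 were further below control with siRNA 2. Epop went the other way (log2 difference 0.23, SE 0.0518, edgeR adjusted p = 0.00266), since its siRNA 1 libraries were the lower ones, at 105 to 118 CPM against 125 to 140.4 CPM with siRNA 2.

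Separated genes were not spread evenly over levels of expression. Among genes with a mean under 3 CPM, 2.18% were separated above and 1.02% below control, and among genes at 30 to 100 CPM the shares were 5.10% and 2.73%. With total counts the order turned over 300 CPM, with 2.08% above (11 genes) and 7.36% below (39 of 530 genes). Of those 39, 12 were ribosomal protein genes, and 5.60% of the other genes in that class lay below control. Where the order turned depended on the scaling. With TMM factors, lower genes already outnumbered higher ones at 30 to 100 CPM (146 against 140) and at 100 to 300 CPM (129 against 64), and there were 53 lower and 8 higher genes over 300 CPM. CPM is not corrected for gene length, and a given fold change is easier to separate at high counts: the median absolute log2 fold change of separated genes went from 0.73 under 3 CPM to 0.13 over 300 CPM.

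**Figure D5:**
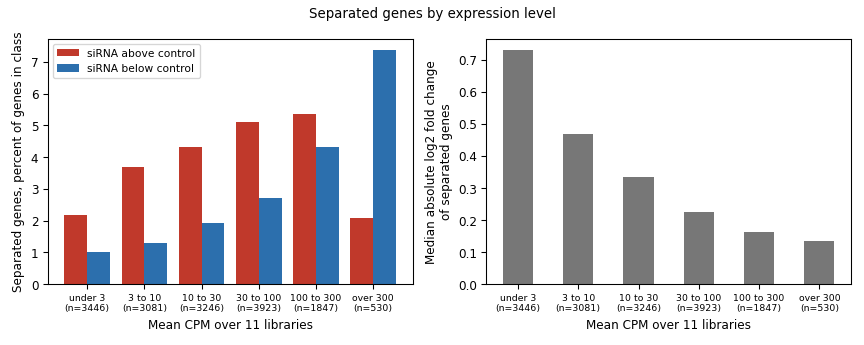
Left, percent of the genes in each class of mean CPM that were separated, above control in red and below in blue, with the number of genes in each class under the bars. Right, median absolute log2 fold change of the separated genes in each class. Lower genes outnumber higher ones in the class over 300 CPM (7.36% against 2.08%), and the median difference falls from 0.73 to 0.13 with level.

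Higher genes were longer. The median merged exon length of protein-coding genes was 5888 bases for the 588 higher, 4439 for the 331 lower and 4545 over all tested, and the gene spans 36938, 20345 and 25076.5 bases. GC content of the longest transcript was 48.7%, 50.8% and 50%. In promoters from RefSeq (250 bases before to 50 after the start), which were matched for 442 higher, 264 lower and 10366 of all genes, motifs were sought on either strand, with shares given for higher, lower and all genes. CCAAT was found in 32.1%, 36.0% and 39.0%, the GC box GGGCGG in 70.6%, 68.9% and 65.8%, TATAAA in 6.11%, 9.09% and 6.76%, and the E-box CACGTG in 11.1%, 10.6% and 10.3%. The cAMP element TGACGTCA was in 2.49%, 2.65% and 3.27%, the NRF1 element in 2.04%, 0.379% and 2.08%, and the TEAD element GGAATG in 12%, 10.2% and 11.8%.

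Separation is a strict rule, and genes near its edge differ little from each other. The genes that follow have a mean of at least 100 CPM. Just inside above control lay Tsc2, a brake on mTORC1, at 194.5 to 196.0 CPM in control and 196.1 to 222.3 CPM with the CMTR1 siRNAs, and Morc2a, at 192.2 to 198.4 CPM in control and 198.5 to 230.7 CPM with the CMTR1 siRNAs. Just inside below control lay Slc29a1, a nucleoside transporter, at 164.8 to 186.0 CPM in control and 116.2 to 164.8 CPM with the CMTR1 siRNAs, and Icam1, an adhesion molecule, at 101.5 to 114.5 CPM in control and 89.78 to 101.5 CPM with the CMTR1 siRNAs. Just outside on the higher side were Pcm1, of centriolar satellites, at 262.8 to 267.0 CPM in control and 267.0 to 292.4 CPM with the CMTR1 siRNAs, and Cdk12, a kinase of RNA polymerase II, at 365.0 to 392.4 CPM in control and 392.4 to 418.2 CPM with the CMTR1 siRNAs. On the lower side these were Esrrb and Mib1, a ubiquitin ligase for Notch ligands, the second at 202.3 to 215.8 CPM in control and 185.8 to 202.3 CPM with the CMTR1 siRNAs. With TMM factors or DESeq2 size factors, Esrrb and Mib1 were separated below control and Tsc2 and Morc2a were not separated.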

How the data were processed

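RNA-seq was performed on 11 libraries of E14 mouse ESCs. Raw counts of reads per Ensembl gene were deposited by the authors, 1 file per library. Per the methods, the authors trimmed reads with cutadapt, aligned them to GRCm38/mm10 with STAR, removed duplicates with Picard and counted with featureCounts, with versions and annotation release not given in the sources used here. Removing duplicates can lower the counts of abundant genes. Summary lines in 10 of the 11 files, 5314618 to 6998875 reads outside any gene per library, were left out of library sizes and tests. Library totals of 6738478 to 8382318 counts limit precision for genes of few reads.

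CPM was taken on total counts. Genes with more than 1 CPM in at least 4 libraries (16073) were fitted with edgeR 4.0.16 (glmQLFit and glmQLFTest, Benjamini-Hochberg adjustment over all genes tested, threshold 0.05) in R 4.3.3, with control, siRNA 1 and siRNA 2 as 3 groups and no block; the log2 fold change is the mean of both siRNAs less control. DESeq2 1.42.0, edgeR's exact test, other scalings and filters, a replicate block and leaving out each library were tried as well. The code was tested on simulated counts. Replicates differed by more than sampling noise, so no library was taken as a second sequencing of another. This does not show that the libraries came from separate cultures. Gene models, 3′ UTRs and target sites came from the GENCODE M21 annotation of GRCm38, which held 54809 of the 54838 genes, and promoters from RefSeq. Merged exons and the longest 3′ UTR of each gene were used, with scripts in Python 3.11.15 and scipy 1.17.1.

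Genes were named by rule. Besides Cmtr1, these were, in each direction, the 12 separated genes of largest fold change with a mean of at least 10 CPM, the 8 with the widest gap between groups, up to 5 separated genes per function list, the 2 nearest to the edge of the rule on each side at 100 CPM or more, and the 3 separated genes of lowest p between the siRNAs. The members, the 45 function lists and the 7 marker lists were chosen with earlier results of these data known. Results for some genes named by this rule are not reported here.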

Additional observations from a re-analysis of the deposited data

Results flagged for a closer look

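In 17 of 266 groups of 4 libraries of the named genes, 1 library lay apart from the other 3. Chance flags about 1 in 20 groups. The gap to the nearest library as a share of the group's range was, with siRNA 2, 0.857 for Mras (library 4), 0.832 for Bmp4 (library 3), 0.907 for Mylpf (library 1), 0.833 for Rbm3 (library 4), 0.831 for Eif4b (library 3), 0.837 for Utp14a (library 4), 0.876 for Icam1 (library 1), 0.838 for Pcm1 (library 4), 0.846 for Tln1 (library 2), 0.88 for Tet3 (library 4), 0.845 for Jak2 (library 1) and 0.883 for Spred3 (library 2). With siRNA 1 it was 0.884 for Mycn (library 4), 0.932 for Tsc2 (library 3), 0.865 for Plk2 (library 1), 0.905 for Samd4 (library 2) and 0.888 for Asxl3 (library 1).

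The siRNAs differed from each other at 18 named genes by edgeR's test. Log2 differences, siRNA 2 less siRNA 1, were positive for Hormad2 (0.71, edgeR adjusted p = 5.38e-05), Piwil2 (0.53, 3.33e-07), Slco5a1 (0.46, 0.000458), Cbr3 (0.43, 0.0225), Hist1h2ba (0.43, 0.00949), Slc38a4 (0.26, 4.26e-05), Epop (0.23, 0.00266) and Dnmt3l (0.12, 0.0467). They were negative for Cox6b2 (−0.35, edgeR adjusted p = 0.0158), Ak4 (−0.31, 0.0114), Wsb2 (−0.28, 0.000388), Rbm3 (−0.27, 8.01e-05), Anp32b (−0.27, 0.00012), Slc29a1 (−0.26, 0.00063), Esrrb (−0.21, 0.0312), Socs2 (−0.19, 0.029), Tubb6 (−0.18, 0.0288) and Gsk3b (−0.16, 0.0369). Of these, Hist1h2ba, a testis-type histone H2B gene, and Cox6b2, a testis-type subunit of cytochrome c oxidase, lay above control with both siRNAs.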

How the results depend on the processing

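Separated genes numbered 1002 (639 above and 363 below control) and kept within 1.5 times of that under other scalings and filters. Fewer controls make separation easier: without control library 1, 2 or 3 there were 1979 (1205 and 774), 1622 (1032 and 590) and 1624 (1027 and 597), and over all single libraries left out 1093 to 1979, 697 to 1205 above and 386 to 774 below. Calls by edgeR, 1110 (673 higher and 437 lower), were 1082 with TMM factors (509 and 573), 660 with DESeq2 (262 and 398), 693 with edgeR's exact test of 2 groups (442 and 251) and 489 with all 8 siRNA libraries as 1 group (293 and 196). Single libraries left out gave 499 to 1215 calls, 266 to 727 higher and 203 to 488 lower, with 499 without control library 2 and 502 without control library 3; a control group of 2 has fewer samples. Separated genes that differed between the siRNAs, 52, were 33 with DESeq2 and 34 to 58 with single libraries left out, the 34 without siRNA 1 library 2.

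With the replicate number as a block (replicate block), 1144 genes were called (699 and 445), 968 of them in both fits. Deviations of same-numbered libraries correlated at −0.065 to 0.070 over all genes, and those of other pairs between groups at −0.084 to 0.085. A culture or day that affected only some genes need not show in such values, so whether same-numbered libraries belong together stays unknown. Among the 115 named genes called, calls were lost for 6 with TMM factors, 14 with DESeq2, 13 with the exact test, 20 with 2 groups and 8 with the block, none changed direction, and 79 were called in every fit that left out a library. Of the 45 list medians, 8 changed sign with TMM factors, 11 with DESeq2 and 4 with the block. The causes were not tested. At 6738478 to 8382318 reads a library, differences at genes of few reads were not detectable unless large.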

Other observations

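Genes of the germline, which are kept silent by DNA methylation in somatic cells and are partly expressed in ESCs, mostly fell outside the separated set. Of 18 tested, 8 rose by edgeR's test of both siRNAs against control (4.19% of all genes tested rose), the median log2 fold change was 0.37, and only Piwil2 was separated. The genes given next were chosen after their values were seen. Dazl, an RNA-binding protein of germ cells, was at 13.6, 11.1 and 11.4 CPM in controls, against 12.8, 15.8, 15.3 and 12.6 for siRNA 1 and 36.4, 34.1, 32.6 and 31.1 for siRNA 2 (log2 fold change 0.85, SE 0.1, edgeR adjusted p = 1.87e-07). Its siRNA 1 libraries overlapped with control, and its siRNA 2 libraries lay above all others (log2 difference 1.24, SE 0.0915, edgeR adjusted p = 3.04e-13, siRNA 2 less siRNA 1). Ddx4, the germ cell helicase VASA, was at 10.5, 11.8 and 10.9 CPM in controls, against 13.1, 10.6, 12.8 and 13.4 for siRNA 1 and 19.2, 19.3, 15.6 and 19 for siRNA 2 (log2 fold change 0.44, SE 0.108, edgeR adjusted p = 0.0069), and again the siRNA 2 libraries were the highest (log2 difference 0.56, SE 0.105, edgeR adjusted p = 0.000356). Mael, of the piRNA pathway, was at 18.7, 21.5 and 21.9 CPM in controls, against 15.4, 16.7, 21.7 and 19.2 for siRNA 1 and 36.5, 32.7, 25.1 and 32.6 for siRNA 2, and differed between the siRNAs (log2 difference 0.79, SE 0.099, edgeR adjusted p = 3.06e-07), while the mean of both siRNAs against control did not pass the test (0.22, edgeR adjusted p = 0.186). Zscan4d, a gene of 2-cell-like cells, was at 7.11, 5.55 and 5.52 CPM in controls, against 5.79, 7.35, 7 and 4.68 for siRNA 1 and 11.1, 10.3, 10.5 and 9.51 for siRNA 2 (log2 difference 0.73, SE 0.142, edgeR adjusted p = 0.000589).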
